A study of Mus musculus with 4 samples.

Results

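The genes described here encode the enzymes of the tricarboxylic acid (TCA) cycle, the pyruvate dehydrogenase complex that feeds it, the enzymes of fatty acid oxidation, and 3 transcriptional regulators of these pathways. The list of 45 genes was given by name, and its genes are called members below. Of these, 44 were measured by a probe set (several short probes against the same transcript) that the platform annotation assigned to that gene only, out of 18193 genes measured in this way. For each gene the probe set with the highest mean over the 4 arrays was used. Acsl1 was not analysed here. The low-signal filter was passed by 42 members, while Ppara and Ppargc1a were below it.

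The study asked which genes differ between KO and wild-type (WT) mice in regulatory T cells (Treg cells), CD4 T cells that restrain immune responses. Splenic naive T cells of each genotype were stimulated for 3 days under conditions that induce Treg cells, and RNA of 2 WT and 2 KO cultures was hybridised to 1 array each. The labels give neither the gene removed in the KO, nor whether it was removed in all cells or in T cells only, nor the strain or age of the mice, and no array compares cells before the culture. The sample titles number the arrays (WT1, WT2, KO1, KO2) without naming a mouse, and how the cultures were kept apart is not said. P-values thus reflect the spread of these 4 samples alone, and part of that spread may be technical.

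The TCA cycle oxidises acetyl-CoA in the mitochondrial matrix and passes the electrons to the respiratory chain. Acetyl-CoA comes from pyruvate, through pyruvate dehydrogenase, and from fatty acids, which are activated by acyl-CoA synthetases, carried into mitochondria as carnitine esters and shortened in a repeated cycle of 4 reactions. Effector T cells are known for a high rate of glycolysis, whereas induced Treg cells and memory T cells are known for a greater use of mitochondrial oxidation.

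Most members were at moderate to high signal in both genotypes, and 10 of the 42 tested ones were called. In KO cells 2 members rose, namely Idh3a and Acadl, and 8 fell, namely Pdha1, Cs, Idh2, Suclg2, Fh1, Echs1, Acaa2 and Hsd17b4, while 32 did not pass an adjusted p of 0.05 (limma's moderated test, Benjamini-Hochberg adjustment over 27022 tested probe sets). By the probe set used for each gene all folds lay below 2, while a dimmer probe set each of Pdha1, Suclg2 and Idh3a lay above 2. Thus 23.8% of the tested members were called, beside a background of 20.3% over the 12547 genes tested by the same rule, and of 17.1% over all tested probe sets. By direction 4.76% of the tested members were called higher, beside 10.5% of genes, and 19.0% were called lower, beside 9.87% of genes. The median log2 fold change (KO minus WT) of the 42 tested members was -0.055, beside -0.026 over all tested genes. The share called in either direction thus lay near the background, with fewer members called higher and more called lower than that background, a split that was not tested. The count called lower varied with the processing. With each array centred on its median it was 5 members, beside 2134 of 27022 probe sets. With the dimmest 60% of probe sets dropped it was 9 members, beside 2512 of 18015 probe sets. Variance was fitted with a dependence on intensity, and without that dependence none of the 10 members was called by limma. In that fit 1183 probe sets were called over the whole array in place of 4608. At an unadjusted p of 0.05 it had 2 members higher and 8 lower, and limma with the dependence had 4 higher and 14 lower. No background share over all genes stands beside these or later counts at an unadjusted p, so they cannot be read against one.

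**Figure D1:**
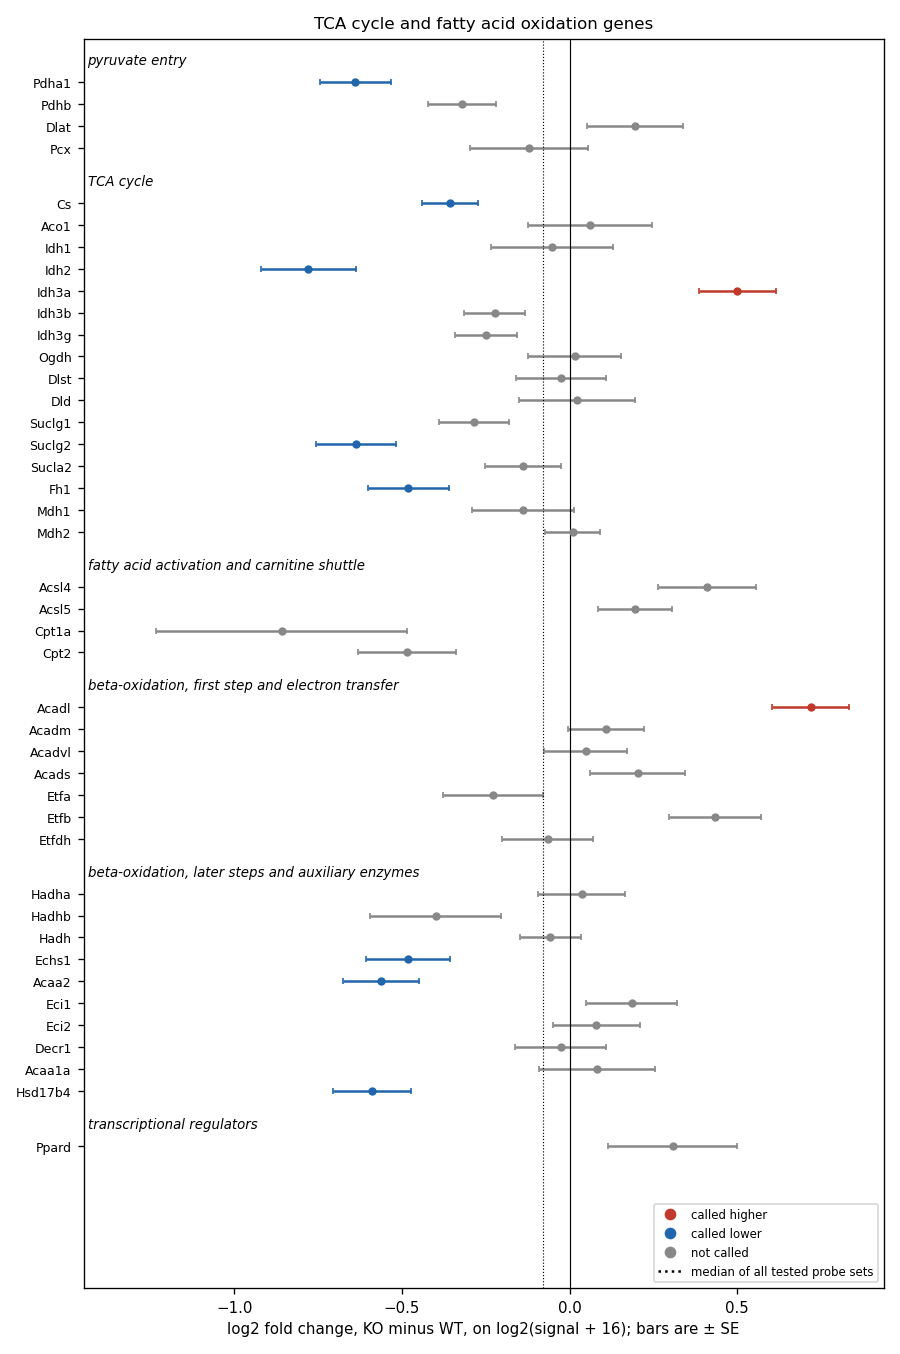
Log2 fold change (KO minus WT, on log2(signal + 16)) of each tested member by role, with bars of ± SE (2 arrays per group); the dotted line is the median of all tested probe sets. The 8 members called lower lie between -0.78 (Idh2) and -0.36 (Cs), and the 2 called higher are Idh3a at 0.50 and Acadl at 0.72.

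The cultures carried T cell transcripts in both genotypes, together with transcripts typical of other cell types in KO cells. Foxp3, the factor that defines Treg cells, gave signals of 2177 and 2033 in WT and of 947 and 1101 in KO cells. Of all 6 Treg markers 3 fell, namely Foxp3, Ikzf2 (-0.73) and Nrp1 (-1.28), and 3 rose, namely Il2ra (0.99), Ctla4 (0.97) and Tnfrsf18 (0.50). Their summed signal was 30321 to 30423 in WT and 42405 to 43861 in KO cells. Of this Tnfrsf18 alone gave 12951 to 13405 in WT and 17865 to 19457 in KO cells. The 3 markers that rose made up most of these sums, which thus do not measure an amount of Treg cells. Of the 8 measured T cell genes 4 rose and 1 fell, and their summed signal was 50784 to 52621 in WT and 67867 to 70948 in KO cells. Of 13 measured mast cell or basophil markers 11 rose, from a summed signal of 1008.0 to 1562 in WT to 33722 to 48642 in KO cells. The sum of 13 myeloid markers, of which 8 rose, went from 627 to 919 in WT to 4529 to 7167 in KO cells. For 7 NK cell markers (4 rose) the sums were 784 to 1162 and 6975 to 11044, and for 5 eosinophil markers (2 rose) 26.9 to 88.8 and 2064 to 5469. The NK cell markers that rose were Klrd1, Nkg7, Fcer1g and Tyrobp. Klre1 was not called, and Ncr1 and Klra8, at no more than 58.5 and 33.4 on any array, were not tested. Of 8 B or plasma cell markers 3 rose, namely Jchain, Sdc1 and Ighm, with sums of 22532 to 24509 and 44361 to 54468. Of these sums Xbp1 alone gave 20182 to 20514 over the 4 arrays. Ighm gave 1762 to 3125 in WT and 20551 to 28036 in KO cells. Xbp1 and the B cell markers Cd79a, Cd79b and Ms4a1 were not called, and Pax5 was not tested. Both CD8 markers rose (881 to 924 and 2196 to 2653), and neither of the 2 tested erythroid markers was called. No marker was at 0, although the eosinophil markers Siglecf, Il5ra and Ccr3 did not exceed 36.1 on any array. Marker lists other than the erythroid one thus held genes that differed between the groups beside every change below, and their part in it was not tested. In such cultures fewer cells of a type and less RNA per cell cannot be told apart.

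Of the 4 members of pyruvate entry 1 fell. Pdha1, the catalytic alpha subunit of pyruvate dehydrogenase, gave signals of 6291 and 6037 in WT and 4231 and 3689 in KO cells. The groups did not overlap, and Pdha1 fell 1.56-fold (log2 fold change -0.64 ± 0.11 SE, adjusted p = 0.00464). A second Pdha1 probe set also fell, from 3058 and 2944 to 1432 and 1453 (-1.05 ± 0.11, adjusted p = 0.00047). The partner subunit Pdhb was at 3999 and 3753 in WT and 3135 and 3065 in KO cells, without overlap, and did not pass (-0.32 ± 0.10, adjusted p = 0.0641). Dlat, the acetyltransferase of the complex, was at 0.19 ± 0.14 and Pcx, the pyruvate carboxylase that refills the cycle with oxaloacetate, at -0.12 ± 0.18, and neither passed.

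In the first steps of the cycle 2 members fell and 1 rose. Citrate synthase, Cs, which joins acetyl-CoA to oxaloacetate, was at 13800 and 13283 in WT and at 10576 and 10559 in KO cells. Its arrays agreed closely within each group, and Cs fell 1.28-fold (-0.36 ± 0.08, adjusted p = 0.0224). Calls among the isocitrate dehydrogenases went in both directions, and differences between these genes were not tested. Idh2, the mitochondrial NADP-dependent enzyme, was at 1613 and 1366 in WT and 819 and 899.9 in KO cells and fell 1.72-fold (-0.78 ± 0.14, adjusted p = 0.00715). This was the lowest log2 fold change among the members that were called. Idh3a, the catalytic subunit of the NAD-dependent enzyme of the cycle, was at 2145 and 2125 in WT and 3230 and 2838 in KO cells. It rose 1.42-fold (0.50 ± 0.11, adjusted p = 0.0193). The other 2 subunits of that enzyme, Idh3b (7671 and 7265 against 6476 and 6317) and Idh3g (6785 and 6778 against 5891 and 5531), were lower on the KO arrays and did not pass (adjusted p of 0.136 and 0.106). Idh1, the cytosolic enzyme, was at 576 and 792 in WT and 679 and 624 in KO cells, with overlap (-0.05 ± 0.18). Aco1, the cytosolic aconitase that doubles as an iron sensor, overlapped as well (0.06 ± 0.18). The call of Cs was lost without WT array 1 (adjusted p = 0.171) or WT array 2 (0.12), with each array centred on its median (0.11), with no filter (0.0599), without its less specific probe set (0.0938), and in the mean over its 3 probe sets (0.051). That of Idh3a was lost with WT array 1 (0.0737), WT array 2 (0.0861) or KO array 1 (0.0656) left out.

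In the later steps of the cycle 2 members fell. By their brightest probe sets the subunits of the 2-oxoglutarate dehydrogenase complex did not pass: Ogdh was at 0.02 ± 0.14, Dlst at -0.03 ± 0.13 and Dld, shared with pyruvate dehydrogenase, at 0.02 ± 0.17. Among dimmer probe sets, that of Ogdh was at 222 and 220 in WT and 130 and 147 in KO cells, without overlap, and did not pass (-0.62 ± 0.23, adjusted p = 0.104), and 1 of the 3 dimmer ones of Dlst was called lower, from 215 and 262 to 92.7 and 133 (-0.99 ± 0.27, adjusted p = 0.0363). Succinyl-CoA ligase pairs the subunit Suclg1 with a partner that makes either GTP, Suclg2, or ATP, Sucla2. Suclg2 was at 1758 and 1716 in WT and 1113 and 1108 in KO cells. It fell 1.56-fold (-0.64 ± 0.12, adjusted p = 0.00807), and its second probe set fell as well, from 613 and 556 to 294 and 272 (-1.004 ± 0.17, adjusted p = 0.0056). Sucla2 was at 2696 and 2799 against 2659 and 2343 (-0.14 ± 0.11, adjusted p = 0.454), and Suclg1 at 3998 and 3626 against 3117 and 3126 (-0.29 ± 0.10, adjusted p = 0.0998). Neither passed, and the difference between Suclg2 and Sucla2 was not tested. Fumarase, Fh1, was at 4041 and 3846 in WT and 3102 and 2565 in KO cells and fell 1.40-fold (-0.48 ± 0.12, adjusted p = 0.0287). Its call was lost when WT array 1 (adjusted p = 0.125), WT array 2 (0.0814) or KO array 2 (0.0739) was left out, with median centring (0.0675) and with no filter (0.0542). The malate dehydrogenases overlapped between the groups: the mitochondrial Mdh2 was at 16714 and 16523 in WT and 17107 and 16351 in KO cells (0.009 ± 0.082), and the cytosolic Mdh1 at 17397 and 16946 against 12987 and 18723 (-0.14 ± 0.15). By this probe set Mdh1 was low on KO array 1 only, and its log2 fold change was -0.40 without KO array 2. Other bright Mdh1 probe sets were at 6026 and 5565 against 6430 and 5689 (0.06 ± 0.10) and at 13673 and 11292 against 10954 and 10799 (-0.19 ± 0.11). A dim one was at 161 and 144 against 86.6 and 63.8 (-0.90 ± 0.29), and none of these was called. Of the 16 members of the cycle 1 rose, 4 fell and 11 did not pass, so that 31.2% were called, beside 20.3% of all genes.

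**Figure D2:**
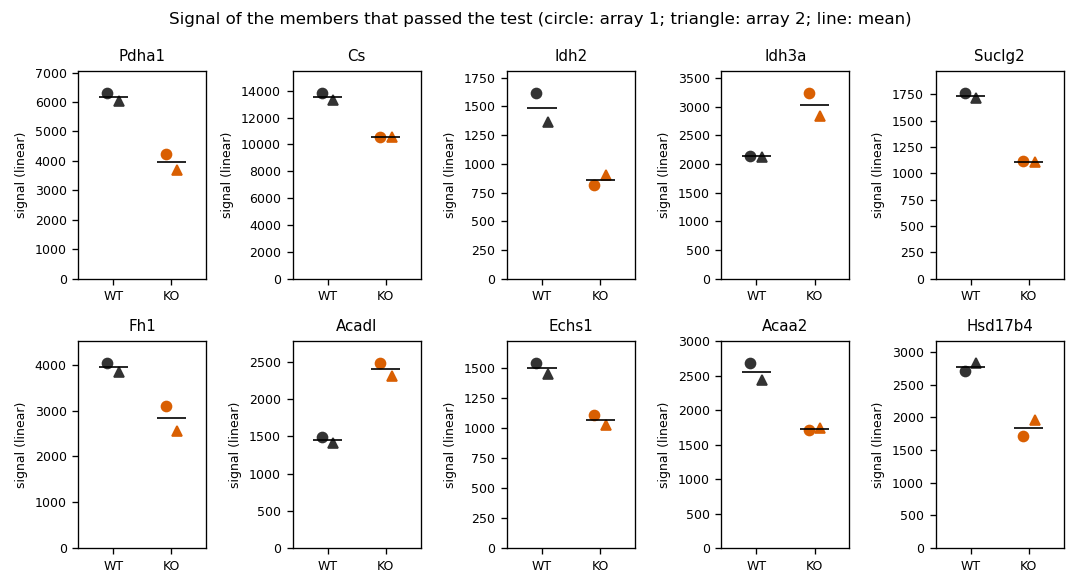
Linear signal of the 10 called members on each array, with circles for array 1, triangles for array 2 and a line for the mean of each group (n = 2); every axis starts at 0. Idh3a and Acadl are higher in KO cells, the other 8 are lower, and in none of the 10 do the groups overlap. The 10 were picked by the test on these same arrays, and some members that were not called, such as Pdhb and Suclg1, do not overlap either.

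Fatty acids are activated and imported by the products of 5 members, and none of the 4 tested ones passed in limma, and 3 of the 4 had an unadjusted p below 0.05. Cpt1a, which makes the acyl-carnitines that enter mitochondria and is held to set the pace of the pathway, was at 1839 and 1863 in WT and at 606 and 1687 in KO cells. The KO arrays thus differed from each other by more than KO array 2 differed from WT, and the log2 fold change was -0.86 ± 0.37 (adjusted p = 0.157). It was -1.59 without KO array 2 (adjusted p = 0.000285), and -0.13 without KO array 1. Its 2 other tested probe sets were at -0.13 ± 0.20 and at 0.18 ± 0.14. Cpt2, which turns acyl-carnitines back into acyl-CoA, was at 1324 and 1387 against 1074 and 865. It stood just above the threshold (-0.48 ± 0.15, adjusted p = 0.0544) and passed without KO array 1 (adjusted p = 0.0275), with a pseudocount of 64 (0.0497), with a stricter filter (0.0458) and without the less specific probe sets (0.047). The acyl-CoA synthetase Acsl4, which prefers arachidonic acid, was at 2478 and 2482 in WT and 2846 and 3828 in KO cells (0.41 ± 0.15, adjusted p = 0.0913). Its 2 dimmer probe sets were called higher, at 0.66 ± 0.19 (adjusted p = 0.0494) and 0.62 ± 0.16 (adjusted p = 0.0305). It passed in the mean over its 3 probe sets (adjusted p = 0.021) and without KO array 1 (0.00928). Acsl5 was at 4106 and 3640 against 4669 and 4205 (0.20 ± 0.11, adjusted p = 0.271).

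The first step of beta-oxidation is carried out by acyl-CoA dehydrogenases, which differ in the chain length they accept, and 1 of the 4 rose. Acadl, the long-chain enzyme, was at 1486 and 1415 in WT and 2486 and 2313 in KO cells. It rose 1.65-fold (0.72 ± 0.11, adjusted p = 0.00391), the highest log2 fold change among the members. The call of Acadl was kept when each of the 4 arrays was left out in turn, and was lost in the mean with its second, very dim probe set (0.75, adjusted p = 0.113). The very-long-chain enzyme Acadvl (0.05 ± 0.12), the medium-chain Acadm (0.11 ± 0.11) and the short-chain Acads (0.20 ± 0.14) did not pass. Electrons from these enzymes go to the electron transfer flavoprotein and from there, through Etfdh, to ubiquinone. Of its subunits Etfb was at 1467 and 1296 against 2043 and 1711 (0.44 ± 0.14, adjusted p = 0.0632) and Etfa at 2862 and 2766 against 2795 and 2061 (-0.23 ± 0.15, adjusted p = 0.339). Etfdh was at -0.07 ± 0.14. Etfb passed as higher without KO array 2 (0.56, adjusted p = 0.0375), and Etfa as lower without KO array 1 (-0.45, adjusted p = 0.0452).

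Among the 10 members that act in the later steps of beta-oxidation, 3 fell and none rose in limma (30% called, beside 20.3% of all genes). Echs1, the short-chain enoyl-CoA hydratase, was at 1539 and 1448 in WT and 1106 and 1025 in KO cells and fell 1.40-fold (-0.48 ± 0.13, adjusted p = 0.0328). Acaa2, the mitochondrial thiolase that releases acetyl-CoA, was at 2685 and 2431 against 1707 and 1742. It fell 1.48-fold (-0.56 ± 0.11, adjusted p = 0.0117), and its 2 other probe sets were at -0.99 ± 0.15 (adjusted p = 0.003) and -0.57 ± 0.20 (adjusted p = 0.092). Hsd17b4, a peroxisomal enzyme with hydratase and dehydrogenase activity, was at 2717 and 2835 against 1719 and 1967. It fell 1.505-fold (-0.59 ± 0.12, adjusted p = 0.011), and so did its second probe set (-0.51 ± 0.14, adjusted p = 0.04). The call of Echs1 was lost with WT array 1 (adjusted p = 0.159), WT array 2 (0.098) or KO array 2 (0.0926) left out and with median centring (0.0689), that of Acaa2 without WT array 1 (0.0836), and that of Hsd17b4 without WT array 2 (0.0615).

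The remaining 7 members of these steps overlapped between the genotypes. The trifunctional protein, which acts on long chains, has the subunits Hadha (1043 and 1077 against 1124 and 1051, 0.04 ± 0.13) and Hadhb (7172 and 8018 against 4517 and 7318, -0.40 ± 0.20). As with Cpt1a and Mdh1, the low Hadhb value was on KO array 1 only, and Hadhb passed as lower without KO array 2 (-0.75, adjusted p = 0.00202). The bright second probe set of Hadhb was at 5208 and 4987 against 4474 and 4553 (-0.17 ± 0.09). Hadh, the dehydrogenase for shorter chains, was at -0.06 ± 0.09, the isomerases Eci1 and Eci2 at 0.19 ± 0.14 and 0.08 ± 0.13, the reductase Decr1 at -0.03 ± 0.14, and the peroxisomal thiolase Acaa1a at 0.08 ± 0.17.

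The 3 transcriptional regulators among the members gave no call. Ppara and Ppargc1a, a nuclear receptor and a coactivator that drive fatty acid oxidation in liver and muscle, were dim. The brightest Ppara probe set was at 28.3 and 55.6 in WT and 47.7 and 4.71 in KO cells, and that of Ppargc1a at 28.9 and 32.4 against 48.0 and 20.2. Both overlapped and were not tested. Ppard, the widely expressed relative of Ppara, was at 420 and 480.0 in WT and 649 and 481 in KO cells (0.31 ± 0.19, adjusted p = 0.318), so that KO array 2 was close to WT array 2.

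Several tested probe sets were available for 25 members, with calls in opposite directions in 0 of them and log2 fold changes of both signs in 9. The calls of Pdha1, Suclg2 and Hsd17b4 were made by each of their tested probe sets. For Idh3a a second probe set, dim and less specific by its ID, rose from 82.9 and 146 to 307 and 471 (1.65 ± 0.31, adjusted p = 0.00853). Another 2 dim ones did not pass, at -0.25 ± 0.28 (231 and 149 against 134 and 176) and -0.12 ± 0.21 (236 and 302 against 248 and 241). Averaged over all 4, Idh3a was at 0.44 and was not called (adjusted p = 0.0785). Idh2 rests on 1 bright probe set. Its other one was at 59 to 89 on all arrays and at -0.09 ± 0.35, and the mean of both was not called (adjusted p = 0.093). Signals of different probe sets of a member were not compared as levels.

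**Figure D3:**
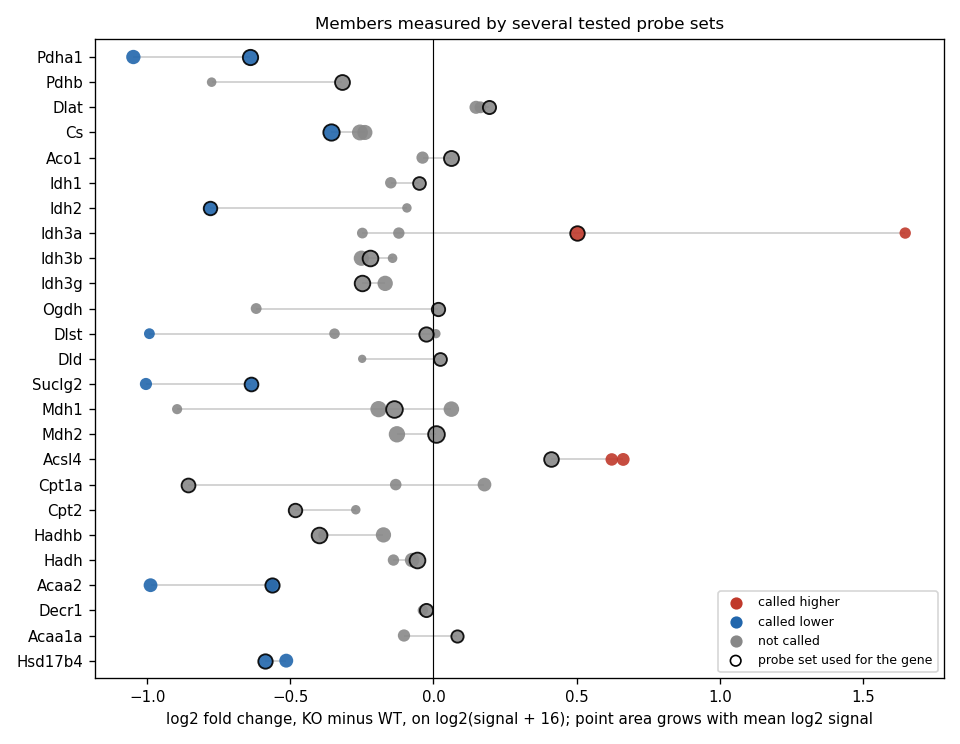
Log2 fold change (KO minus WT, on log2(signal + 16)) of every tested probe set for the 25 members with more than 1; a black ring marks the probe set used, colour the call, and point area grows with the mean log2 signal. Pdha1, Suclg2 and Hsd17b4 have all their points called lower, Idh3a spans -0.25 to 1.65, and Cpt1a spans -0.86 to 0.18.

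The 250 bases before the annotated start were read for members in the RefSeq promoter table (build GRCm38.p6), which holds 41 of the 45. Of the members that were called it holds 6 that fell and Acadl. The first 4 sequences are of called genes, 3 of the 6 that fell and the 1 that rose. The 3 shown that fell all hold CCAAT, which was found for 4 of those 6. The fifth is shown because Hadha and Hadhb share it. Capitals mark CCAAT, the box bound by NF-Y, or AGGTCA, the half-site of nuclear receptors such as the PPAR and ERR proteins, on either strand.
Idh2 (minus strand, chr7:80115351-80115600): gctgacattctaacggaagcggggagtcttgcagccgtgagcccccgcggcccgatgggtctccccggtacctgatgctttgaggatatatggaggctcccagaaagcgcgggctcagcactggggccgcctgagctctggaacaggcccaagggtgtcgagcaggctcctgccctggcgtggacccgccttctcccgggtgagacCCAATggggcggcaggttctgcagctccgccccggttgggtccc
Suclg2 (minus strand, chr6:95718847-95719096): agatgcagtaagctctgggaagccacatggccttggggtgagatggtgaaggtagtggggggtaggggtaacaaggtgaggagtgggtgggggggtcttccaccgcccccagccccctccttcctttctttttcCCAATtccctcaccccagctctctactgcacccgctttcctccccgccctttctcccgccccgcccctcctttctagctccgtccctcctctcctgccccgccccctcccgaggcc
Fh1 (minus strand, chr1:175625636-175625885): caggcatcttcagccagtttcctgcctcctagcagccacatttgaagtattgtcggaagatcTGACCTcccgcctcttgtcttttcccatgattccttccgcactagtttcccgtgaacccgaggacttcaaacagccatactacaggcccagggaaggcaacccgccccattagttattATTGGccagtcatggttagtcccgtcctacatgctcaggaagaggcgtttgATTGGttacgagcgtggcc
Acadl (minus strand, chr1:66863310-66863559): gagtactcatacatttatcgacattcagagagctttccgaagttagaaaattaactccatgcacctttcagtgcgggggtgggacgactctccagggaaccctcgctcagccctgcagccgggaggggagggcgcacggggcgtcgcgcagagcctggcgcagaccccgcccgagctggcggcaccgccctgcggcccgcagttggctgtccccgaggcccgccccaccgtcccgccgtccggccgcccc
Hadhb (plus strand, chr5:30155003-30155252): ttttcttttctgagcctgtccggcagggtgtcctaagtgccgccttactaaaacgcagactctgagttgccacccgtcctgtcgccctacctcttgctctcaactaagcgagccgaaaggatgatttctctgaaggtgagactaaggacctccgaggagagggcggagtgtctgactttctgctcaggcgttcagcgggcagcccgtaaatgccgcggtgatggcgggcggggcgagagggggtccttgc

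CCAAT was found on either strand for 21 of 41 members (51.2%), beside 37.5% of 27025 genes with a promoter of the same length. It was found for 4 of the 6 members that fell, namely Cs, Fh1, Idh2 and Suclg2. AGGTCA was found for 6 members (14.6%), beside 15.8% of all genes, and for 2 of those that fell, Fh1 and Echs1. The Acadl window held neither motif. The longer ERR element TCAAGGTCA, which contains AGGTCA, was found in 0 of the 41 members and in 0.422% of all genes. Hadha and Hadhb lie head to head, with 272 bases between their starts, and the window shown reaches to within 22 bases of the start of Hadha. Neither gene was called. These matches describe letters in the window and were not measured as binding.

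A companion list of 97 further genes covered pyruvate import, the remaining TCA and anaplerotic enzymes, fatty acid uptake and activation, other mitochondrial and peroxisomal oxidation enzymes and regulators. Of its 79 tested genes 3 rose, 8 fell and 68 did not pass. The share called, 13.9%, lay beside the same background of 20.3% of genes, with 3.80% called higher and 10.1% called lower. The 5 largest falls among those called were of regulators and of genes of carnitine and acyl-CoA supply.

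Among regulators, Ppargc1b, a coactivator related to Ppargc1a, was at 655 and 590 in WT and 253 and 284 in KO cells and fell 2.25-fold (-1.17 ± 0.17, adjusted p = 0.00286). Nrip1, a corepressor of nuclear receptors that restrains oxidative genes, fell as well, from 3600 and 3576 to 1355 and 1437 (2.55-fold, -1.35 ± 0.11, adjusted p = 0.00013). Both were thus lower in RNA of the KO cultures. Tfam, which packages and transcribes mitochondrial DNA, was at 2828 and 2646 against 1857 and 1919.8 and fell 1.44-fold (-0.53 ± 0.11, adjusted p = 0.0128). Of 12 tested regulators these 3 fell (25%, beside 9.87% of all genes called lower), none rose and 9 were not called. A log2 fold change below 0 was found for 11 of the 12 and for 47 of all 79 tested companion genes. The median over all tested genes was itself below 0 (-0.026), and the share of all genes below 0 was not counted. A shared shift of the regulators was not tested. The calls of Ppargc1b and Nrip1 were kept under all 14 alternatives, whereas Tfam was lost without WT array 1 (adjusted p = 0.0855) and in the mean over its probe sets (0.0959).

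In fatty acid supply 4 of 15 tested genes fell (26.7%, beside 9.87% of all genes called lower) and none rose. This is 1 group of a list whose share called lower, 10.1%, lay near that background. The acyl-CoA synthetase Acsl6 was at 2907 and 2098 in WT and 682 and 898 in KO cells and fell 3.11-fold (-1.64 ± 0.19, adjusted p = 0.000821). Slc22a5, the plasma membrane carnitine transporter, was at 1058 and 1100.2 against 544 and 486 and fell 2.07-fold (-1.05 ± 0.14, adjusted p = 0.00193). Its call was also kept under all 14 alternatives. The acetyl-CoA synthetases fell too, Acss1 of mitochondria from 1061 and 1121 to 582 and 518 (-0.97 ± 0.14, adjusted p = 0.00279) and Acss2 of cytosol and nucleus from 493 and 514 to 277 and 346 (-0.67 ± 0.19, adjusted p = 0.0402). Slc25a20, the carnitine carrier of the inner membrane, was at 3189.9 and 3190.0 against 3726 and 3582 (0.19 ± 0.10) and did not pass. Acss2 lost its call with WT array 1 (adjusted p = 0.11), WT array 2 (0.153) or KO array 1 (0.143) left out and with no filter (0.0682), and in the means over their probe sets Acss1 (0.12) and Acss2 (0.251) were not called.

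Around pyruvate and the cycle, Pdk3, a kinase that inactivates pyruvate dehydrogenase, rose from 1056 and 1057 to 1640 and 1408 (1.43-fold, 0.52 ± 0.13, adjusted p = 0.0304). Pdk1 overlapped between the groups (-0.19 ± 0.16), and the mitochondrial pyruvate carrier subunit Mpc1 was at 0.20 ± 0.12. Of succinate dehydrogenase, the 4 subunits Sdha (0.02 ± 0.12), Sdhb (0.17 ± 0.09), Sdhc (-0.19 ± 0.11) and Sdhd (0.10 ± 0.11) did not pass, while its assembly factor Sdhaf1 fell from 3283 and 3231 to 1692 and 2093 (1.72-fold, -0.79 ± 0.13, adjusted p = 0.00438). Me1, the cytosolic malic enzyme, was dim and rose from 45.8 and 76.4 to 210.5 and 163 (1.42 ± 0.32, adjusted p = 0.019). Hsd17b10, a mitochondrial dehydrogenase of branched-chain and short acyl groups, rose from 2899 and 2734 to 3651 and 4219 (0.48 ± 0.11, adjusted p = 0.0232). None of the 10 tested peroxisomal genes was called in limma, and 2 of them had an unadjusted p below 0.05. The call of Pdk3 was lost with WT array 1 (adjusted p = 0.102), WT array 2 (0.108) or KO array 1 (0.124) left out, that of Me1 without WT array 1 (0.067) or KO array 1 (0.0808), with no filter (0.0593) and without its less specific probe set (0.255), and that of Hsd17b10 with WT array 1 (0.0642), WT array 2 (0.125) or KO array 2 (0.0684) left out. In the mean over their probe sets Me1 (0.0954) and Hsd17b10 (0.0773) were not called.

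**Figure D4:**
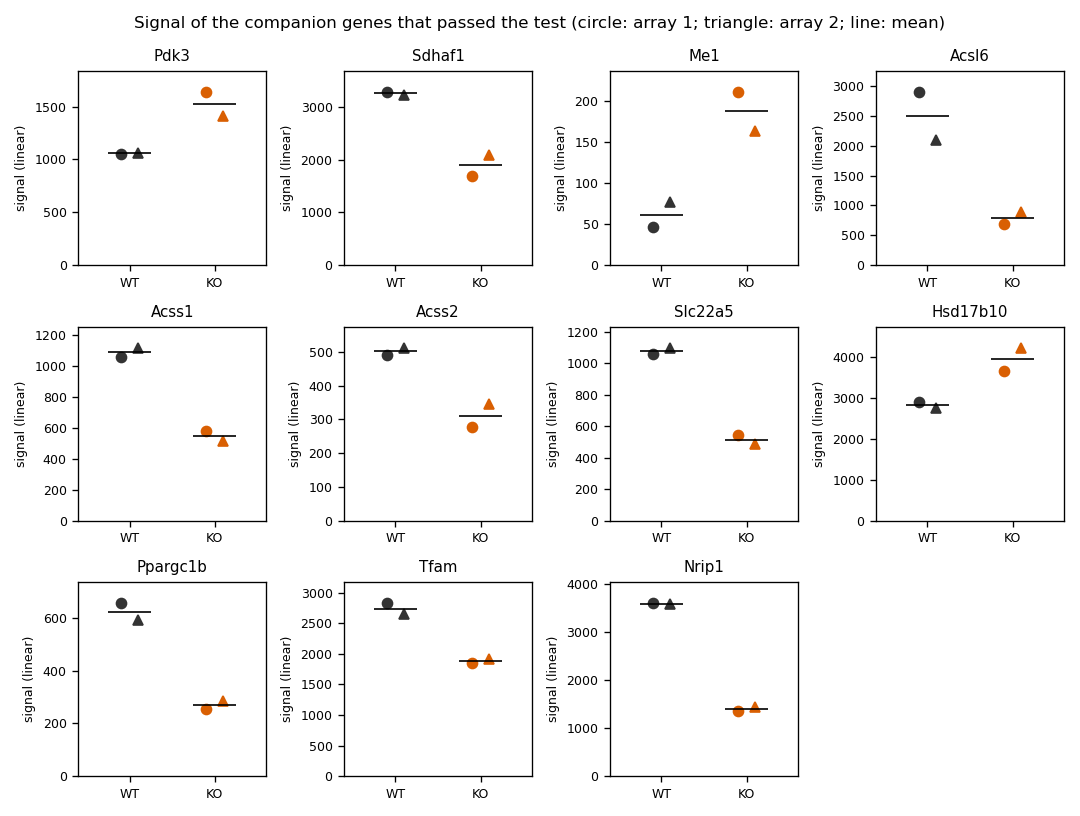
Linear signal of the 11 companion genes that passed the test on each array, with circles for array 1, triangles for array 2 and a line for the group mean (n = 2); every axis starts at 0. Pdk3, Me1 and Hsd17b10 are higher in KO cells, the other 8 are lower, and in none of the 11 do the groups overlap. The 11 were picked by the test on these same arrays, and some companion genes that were not called, such as Mpc1 and Sdhb, do not overlap either.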

How the data were processed

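RNA of 2 WT and 2 KO cultures was hybridised to 4 Affymetrix arrays with a single dye. Per the labels' protocols, biotin-labelled cRNA was made from 6 micrograms of total RNA. The authors deposited linear intensity values per probe set, and the submitters' processing notes list MAS5 without giving its role. These values have the same mean on every array after 2% of probe sets are left out at each end. A difference in total RNA between the groups would be removed by this scaling, and dim signals vary strongly. Precision is limited by the number of arrays.

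Probe sets were named from the platform annotation, in which 34958 of 45101 name 1 gene. The Entrez identifiers of 44 members were found in the RefSeq table (GRCm38.p6), which changed 0 symbols. Signals of all but 64 control probe sets were taken as log2(signal + 16), and the dimmest 40% by mean were dropped. The contrast of KO with WT came from limma 3.58.1 under R 4.3.3 (lmFit, then eBayes with its trend option; two-sided), with Benjamini-Hochberg adjustment over 27022 probe sets and a threshold of 0.05. Residual degrees of freedom were 2 and prior ones 6.41. For groups of 2, the smallest two-sided p of an exact permutation test is 0.333. Fold changes are on the log2(signal + 16) scale, which understates changes of dim genes, and rose and fell are used of called genes only. Over the tested probe sets the median log2 fold change was -0.079, which was not corrected for.

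The members, companion and marker lists were chosen with earlier results of these data known, and the motifs after the values were seen. All members are accounted for, and companion genes were named where called. The analysis was repeated with a pseudocount of 1 or 64, no filter or 60%, quantile normalization, median centring, no intensity trend, the replicate number as a block, no probe sets with IDs ending in _x_at, _s_at or _a_at (less specific by the manufacturer's naming), the mean over all probe sets of a gene, and leaving out each array.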

Additional observations from a re-analysis of the deposited data

How the results depend on the processing

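Of the 10 called members 9 kept the direction of their change under every alternative run for them. The alternative without _x_at, _s_at and _a_at probe sets left no probe set for Suclg2 and Fh1, which have 13 alternatives in place of 14. The exception was Idh3a, which was at -0.25 without _x_at, _s_at and _a_at probe sets, where only a dim probe set was left. Without the intensity trend the calls fell from 4608 to 1183 over all probe sets, from 2 to 0 members higher, from 8 to 0 members lower, from 3 to 0 companions higher and from 8 to 3 companions lower. At an unadjusted p of 0.05, limma without the trend had 2 members higher and 8 lower, and 6 companions higher and 13 lower. Members called lower were 5 with median centring and 5 without _x_at, _s_at and _a_at probe sets, and members called higher were 1 without those probe sets and 1 in the mean over all probe sets of the gene. Leaving out each array in turn gave 2786 to 4387 calls over all probe sets, 1 to 3 members higher, 4 to 10 members lower, 1 to 2 companions higher and 6 to 11 companions lower. The numbers 1 and 2 of the arrays are shared by the genotypes, but deviations of same-numbered arrays correlated at 0.010 over probe sets, so they were not taken as pairs. With the replicate block 5382 probe sets and 4 members higher were called, Acsl4 and Etfb being added, and Cpt1a and Cpt2 were added as lower. The pseudocount and quantile normalization ended no call of a member.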

Other observations

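Members whose probe set ID ends in _x_at, the suffix for probe sets that may hybridise to other transcripts, behaved differently on the 2 KO arrays. In 4 of these 7 members the log2 signal of KO array 2 exceeded that of KO array 1 by over 0.4, namely Cpt1a (1.45), Hadhb (0.69), Aco1 (0.61) and Mdh1 (0.53), and in 0 of them it was lower by as much. Of the 35 tested members with other IDs this held for 1 (Acsl4, 0.43), and 2 were lower by as much. On the WT arrays the same 4 members differed by 0.02, 0.16, -0.20 and -0.04. The pattern was noticed in the members and then looked up over the array. Among 730 probe sets with a mean log2 signal above 10 and an ID ending in _x_at, 13.6% were higher on KO array 2 by over 0.4 and 1.92% were lower, beside 3.78% and 3.46% of 5958 other bright probe sets. Between the WT arrays the shares for _x_at probe sets were 3.01% and 1.78%. By these probe sets the log2 fold changes of Cpt1a, Hadhb, Aco1 and Mdh1 depend on which KO array is read, and the cause was not tested.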
